A study of Mus musculus with 13 samples.

Results

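Myelin and mature oligodendrocyte genes were followed through bulk RNA-Seq of the mouse midbrain. The 40 genes were picked by name for their known place in oligodendrocytes, with earlier results of these data known. Every one of them was found by its Ensembl identifier among the 49315 genes counted. They comprised 14 structural myelin proteins, 6 enzymes of myelin lipids and oligodendrocyte metabolism, 7 transcription regulators and 13 late markers and other mature genes. All 40 had at least 10 counts in at least 3 of the 13 libraries, the condition for being tested, as did 19360 genes in all.

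Each library came from the whole midbrain of 1 male mouse aged 8 to 12 weeks, on a C57BL/6J background of at least 10 backcross generations. All mice carried Ripk3fl/fl alleles. Cre+ mice also carried Aldh1l1-Cre/ERT2, a tamoxifen-inducible recombinase driven in astrocytes, so oligodendrocytes were not the cells aimed at by the deletion. Cre- mice were littermates without it. Tamoxifen was given at 60 mg/kg on 5 days. The paper states this treatment for animals expressing the Cre transgene. It does not say whether littermates without the transgene were treated, and the part of tamoxifen in genotype differences was not tested. MPTP, a toxin of dopaminergic neurons, was injected at 20 mg/kg daily on 5 days against saline, and tissue was taken 3 days later. There were 4 Cre+ MPTP mice and 3 mice in each of the Cre- MPTP, Cre+ Saline and Cre- Saline groups. In such homogenates fewer oligodendrocytes and less RNA per oligodendrocyte cannot be told apart.

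Oligodendrocytes wrap axons of the central nervous system with myelin, a membrane rich in galactolipids whose layers are held together by a small set of very abundant proteins. Their maturation is directed by Olig and Nkx factors and SOX10, and the membrane-bound factor MYRF is needed for mature cells to express the myelin genes. In the midbrain these cells lie in large fibre tracts as well as among neurons, so their transcripts are plentiful in whole tissue.

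The results turned most on Opalin, a glycoprotein of the myelin paranode and inner loop, Mog, the myelin oligodendrocyte glycoprotein of the outer sheath surface, and Apod, the lipid-binding apolipoprotein D. Opalin (ENSMUSG00000050121) lies at chr19:41062474-41077113, minus strand, Mog (ENSMUSG00000076439) at chr17:37010743-37023398, minus strand, and Apod (ENSMUSG00000022548) at chr16:31296192-31314808, minus strand, all on GRCm38, and the values are counts over their exons. The 250 bases before each start, from RefSeq on GRCm38.p6, are shown because the first 2 of these genes were the most reduced structural genes called in Cre- MPTP mice and the third rose in the same libraries. They are written 5′ to 3′ on the gene's own strand, and capitals mark the motifs searched, which were CTGGCAC or CTGGTAC for MYRF, ACAAAG or ACAATG for SOX factors and CAGCTG for an OLIG E-box, on both strands.
Opalin, chr19:41077114-41077363, minus strand: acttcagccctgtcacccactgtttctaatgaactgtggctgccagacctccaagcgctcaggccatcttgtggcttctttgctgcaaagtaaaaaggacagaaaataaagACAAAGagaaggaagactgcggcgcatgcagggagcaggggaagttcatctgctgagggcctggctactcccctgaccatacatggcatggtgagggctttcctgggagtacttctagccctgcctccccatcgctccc
Mog, chr17:37023399-37023648, minus strand: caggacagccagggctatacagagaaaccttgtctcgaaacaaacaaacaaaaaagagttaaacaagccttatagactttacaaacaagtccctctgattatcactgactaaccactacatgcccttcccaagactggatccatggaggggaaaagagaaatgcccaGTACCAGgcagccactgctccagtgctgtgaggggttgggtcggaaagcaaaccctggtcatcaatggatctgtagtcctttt
Apod, chr16:31314809-31315058, minus strand: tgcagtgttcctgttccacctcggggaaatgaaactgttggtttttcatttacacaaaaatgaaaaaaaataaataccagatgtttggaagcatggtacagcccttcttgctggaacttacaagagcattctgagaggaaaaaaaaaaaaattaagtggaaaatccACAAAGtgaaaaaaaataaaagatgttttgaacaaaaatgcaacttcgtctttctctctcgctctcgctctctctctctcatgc
The Mog stretch held a MYRF word 83 bases before the start, read on the opposite strand, while those of Opalin and Apod held a SOX word 139 and 84 bases before it. RefSeq windows of 300 bases, reaching 50 bases past the start, were at hand for 29 of the 40 genes, in 43 windows. Past the start, the Opalin window also held a MYRF word and a further SOX word, and an E-box began at its last shown base. The Apod window also held a SOX word and an E-box past the start. A MYRF word was in 7 of these 43 windows (16.3%) and in 7.1% of all 32851 windows, a SOX word in 18 (41.9%) and in 28.6% of all, and the E-box in 7 (16.3%) and in 16.3% of all. These matches describe the letters only.

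The libraries held 17713289 to 29397278 counts in 12 cases and 11489150 in Cre- MPTP replicate 1, which stood apart from all others. It detected 21101 genes against 25432 to 27186 elsewhere, 1.12% of its counts were mitochondrial against 3.55% to 6.06%, and its gene levels were higher by 1.06 on the log2 scale for each 10 points of GC content, where the other slopes lay between -0.19 and 0.084. For the 40 genes, counts, medians and calls that rest on the Cre- MPTP group are therefore given with and without this library. Ripk3 itself had 4 to 40 counts per library, with 18 and 40 in Cre- MPTP replicates 2 and 3 and 4 to 19 in the 4 Cre+ MPTP libraries, too few in whole tissue to check a deletion in astrocytes. Transcripts of heart and skeletal muscle summed to 5983 CPM in Cre+ MPTP replicate 4 and reached 135 CPM in Cre+ Saline replicate 1, against at most 64.7 CPM elsewhere.

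Myelin transcripts spanned a wide range of levels in Cre- Saline mice. Per kilobase of counted exon, Mbp, which binds the inner faces of the myelin membrane together, led with 904 ± 124 CPM (SD, n = 3), followed by Mobp at 320.3 ± 79.5 CPM. The highest enzyme was Qdpr, which recycles tetrahydrobiopterin, at 227 ± 11.8 CPM per kilobase, and Cnp, a phosphodiesterase of the cytoplasmic channels of myelin, did not differ from it beyond the spread, at 226 ± 50.2. Plekhb1, a pleckstrin-homology protein, was the highest late marker at 191 ± 9.56, and Olig1, a helix-loop-helix factor, the highest regulator at 131 ± 22.9. The lowest were the homeodomain factor Nkx2-2 at 5.44 ± 0.504 and the zinc-finger factor St18 at 2.21 ± 0.377. Mbp alone gave 39.0% to 45.2% of the counts of the 40 genes in every library.

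**Figure D1:**
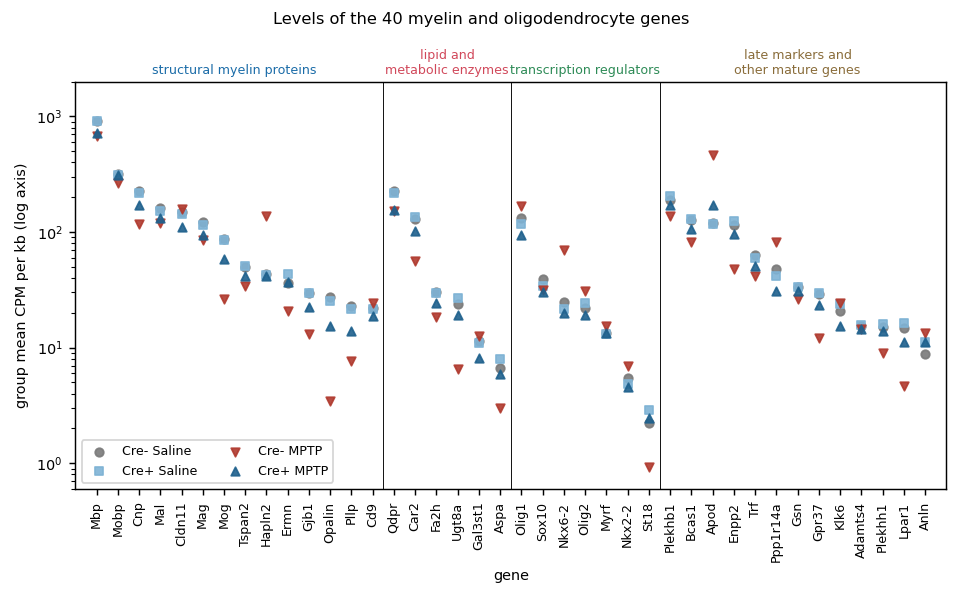
Group mean CPM per kilobase of counted exon (log axis) of the 40 genes, ordered within each role by the Cre- Saline mean; markers stand for the 4 groups (n = 3, 3, 3 and 4). Mbp lies at 904 and St18 at 2.21 CPM per kilobase in Cre- Saline mice, and the Cre- MPTP markers, which include replicate 1, leave the others furthest.

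Summed over the 40 genes, the level was 14295, 17788 and 19146 CPM in Cre- Saline mice, 16458, 16638.5 and 18292 in Cre+ Saline mice, 14973, 13738 and 12696 in Cre- MPTP mice and 14475, 15926, 13306 and 13116.5 in Cre+ MPTP mice. All 4 Cre+ MPTP libraries lay below all Cre+ Saline libraries, whereas Cre- MPTP replicate 1 lay above the lowest Cre- Saline library. Mbp made up a large share of this sum, and several less abundant genes differed by far more.

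To find which of these genes differed after MPTP in mice with intact astrocytic Ripk3, Cre- MPTP and Cre- Saline mice were compared. Opalin, Mog, the lipid enzyme Ugt8a, the receptors Lpar1 and Gpr37 and 5 other genes fell, Opalin to 12.6% of the mean Saline level, and Apod rose. With edgeR's quasi-likelihood test, 10 of 40 genes were lower and 1 was higher at an adjusted p under 0.05, where 0.956% and 2.23% of all tested genes were called lower and higher. The median log2 fold change was -0.49 over the 40 genes and 0.025 over all genes. CPM values of the 3 libraries lay below all 3 Saline libraries for 18 genes and above them for 2, against 8.02% and 7.11% of all genes. Without Cre- MPTP replicate 1 the calls were 24 lower and 2 higher, where 4.25% and 5.14% of all genes were called, and the median was -0.73; all 11 calls of the full set were among these 26. The 2 remaining libraries lay below all Saline libraries for 28 genes and above them for 4, against 20.4% and 19.6% of all genes.

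Of the 14 structural genes, 4 fell, 11 had a negative log2 fold change and the median was -0.52; without replicate 1, 7 fell and the median was -0.48. Opalin measured 40.1, 55.4 and 57.2 CPM in Cre- Saline mice, 42.3, 50.8 and 47.6 in Cre+ Saline mice, 1.95, 12.4 and 4.89 in Cre- MPTP mice and 20.6, 33.7, 36.6 and 21.8 in Cre+ MPTP mice. Every Cre- MPTP library was below every other library of the study, with a log2 fold change against Saline of -2.95 ± 0.48 (SE, adjusted p = 0.0045), and -2.57 ± 0.35 without replicate 1, which had only 18 Opalin counts.

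Mog was at 109.5, 159 and 179 CPM in Cre- Saline mice, 129.9, 148 and 157 in Cre+ Saline mice, 16.1, 68.7 and 50.2 in Cre- MPTP mice and 97.3, 119, 104 and 80.4 in Cre+ MPTP mice. The 3 Cre- MPTP values did not reach the Saline range, replicate 1 was lowest, and the log2 fold change was -1.72 ± 0.39 (SE, adjusted p = 0.0291), and -1.32 ± 0.21 without replicate 1. Without that library Mog stood at 39.9% of Saline, against 30.2% with it, and the call was lost when any 1 of 7 other libraries was left out, with adjusted p up to 0.122.

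Cnp gave 625, 858 and 985 CPM in Cre- Saline mice, 724, 785 and 873 in Cre+ Saline mice, 414, 463 and 405 in Cre- MPTP mice and 599, 690.3, 645 and 536 in Cre+ MPTP mice. Its Cre- MPTP values lay in a narrow band below all others, at 52.0% of Saline, with a log2 fold change of -0.94 ± 0.17 (SE, adjusted p = 0.00829). The exons of Cnp overlap those of Dnajc7 on the opposite strand, and the strand setting of the counting was not given in the sources used here.

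Gjb1, a connexin of glial gap junctions, was at 43.8, 54.4 and 55.1 CPM in Cre- Saline mice, 45.8, 51.3 and 54.7 in Cre+ Saline mice, 24.2, 24.4 and 18.6 in Cre- MPTP mice and 37.8, 44.8, 36.7 and 35.4 in Cre+ MPTP mice. Replicates 1 and 2 nearly coincided here, all 3 Cre- MPTP libraries were below the rest, and the log2 fold change was -1.19 ± 0.16 (SE, adjusted p = 0.00184). All 4 structural calls held without replicate 1, where Cnp stood at -0.92 ± 0.16 and Gjb1 at -1.25 ± 0.15.

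Mbp, the most abundant member, measured 6409.5, 8046 and 8346 CPM in Cre- Saline mice, 7312, 7510.4 and 8251 in Cre+ Saline mice, 6111, 5846 and 4953 in Cre- MPTP mice and 6114, 6959.7, 5445 and 5496 in Cre+ MPTP mice. All Cre- MPTP libraries were below the Saline libraries, but by a small margin, at 74.2% of the mean, and the difference of -0.43 ± 0.16 (SE, adjusted p = 0.22) was not called by edgeR with all 13 libraries, where limma called it, and was called without replicate 1 (-0.49 ± 0.13 (SE, adjusted p = 0.0376)). Mag, the myelin-associated glycoprotein next to the axon, likewise went from -0.51 ± 0.20, called by limma but not edgeR, to -0.77 ± 0.15 (SE, adjusted p = 0.00504). Mobp at -0.28 ± 0.18 and Cldn11, the claudin of myelin tight junctions, at 0.089 ± 0.23 were not called by edgeR in either set, nor were Mal, Ermn, Tspan2, Hapln2 and Cd9. With all 13 libraries limma called Mal, Ermn and Cd9, and DESeq2 called Hapln2. Cre- MPTP means were 112% of Saline for Cd9 and 319% for Hapln2. edgeR with each library's trend on GC content removed called Mag at -0.74 ± 0.16 (SE, adjusted p = 0.0198) and Ermn at -0.70 ± 0.14 (SE, adjusted p = 0.0138).

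Plasmolipin (Pllp), a tetraspan myelin protein singled out after its values were seen, stood at 41.2, 49.4 and 51.9 CPM in Cre- Saline mice, 37.7, 50.1 and 48.1 in Cre+ Saline mice, 31.3, 9.59 and 6.60 in Cre- MPTP mice and 26.6, 28.3, 35.4 and 26.3 in Cre+ MPTP mice. Replicate 1 was 3.87-fold its group mates, so the full set gave -1.62 ± 0.43 (SE, adjusted p = 0.073) and the set without it -2.55 ± 0.20 (SE, adjusted p = 1.36e-05), the smallest p of the 40 genes. With all 13 libraries DESeq2 and limma called Pllp, as did edgeR with the GC trend removed. Pllp shares exonic bases with Gm45767 on the opposite strand.

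**Figure D2:**
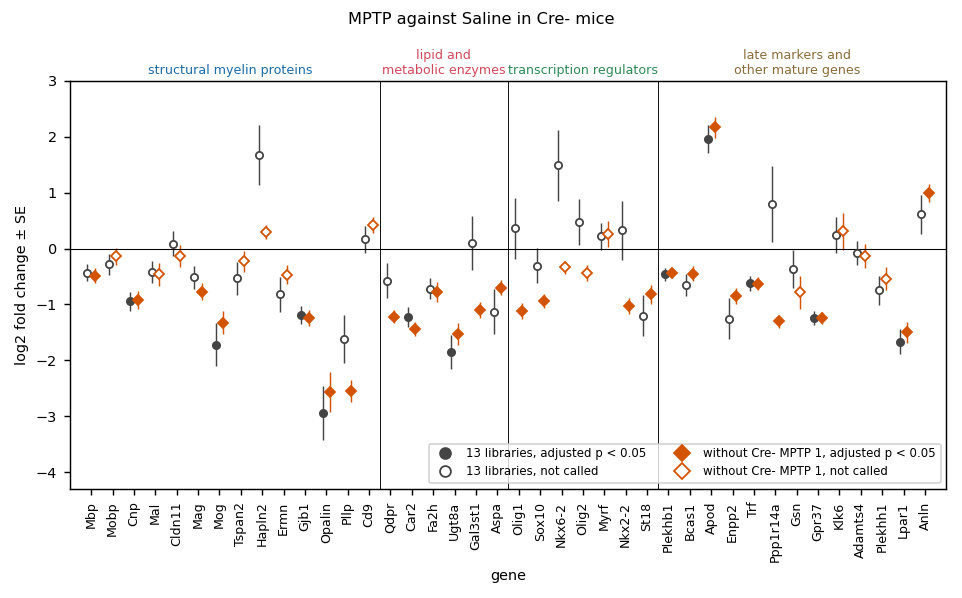
Log2 fold change ± SE of the 40 genes, MPTP against Saline in Cre- mice, from edgeR with all 13 libraries (circles) and without Cre- MPTP replicate 1 (diamonds); filled symbols have an adjusted p under 0.05. Opalin is lowest at -2.95 and Apod highest at 1.96 with all libraries, and the regulators move from a median of 0.32 to -0.82 without replicate 1.

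Among the 6 enzymes, Ugt8a and Car2 fell and the median log2 fold change was -0.92, or -1.16 without replicate 1. Ugt8a, which makes galactosylceramide, the main myelin galactolipid, measured 86.9, 124 and 115 CPM in Cre- Saline mice, 128, 109.6 and 130.4 in Cre+ Saline mice, 14.6, 43.8 and 31.3 in Cre- MPTP mice and 89.6, 108, 72.9 and 79.1 in Cre+ MPTP mice. Cre- MPTP values were at 27.5% of Saline, or 34.6% without replicate 1, and did not overlap any other group. The log2 fold change was -1.85 ± 0.31 (SE, adjusted p = 0.00532), and -1.53 ± 0.19 without replicate 1.

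Car2, a carbonic anhydrase of oligodendrocytes, was at 341, 337 and 269.9 CPM in Cre- Saline mice, 332, 305 and 342 in Cre+ Saline mice, 174, 129 and 105 in Cre- MPTP mice and 241, 272, 242 and 228 in Cre+ MPTP mice. Its Cre- MPTP libraries were the lowest 3 of all 13, with a log2 fold change of -1.22 ± 0.18 (SE, adjusted p = 0.00257), and -1.43 ± 0.13 without replicate 1.

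Qdpr gave 408, 426 and 384 CPM in Cre- Saline mice, 344, 405 and 415 in Cre+ Saline mice, 471, 187 and 159.9 in Cre- MPTP mice and 262, 315, 274 and 254 in Cre+ MPTP mice. Replicates 2 and 3 were below every other library while replicate 1 was above every other library, so that the log2 fold change was -0.58 ± 0.31 (SE, adjusted p = 0.394) with it and -1.22 ± 0.12 (SE, adjusted p = 4.85e-05) without it. The same change of set brought calls for Gal3st1, the sulfotransferase of sulfatide, at -1.10 ± 0.15, for Fa2h, the fatty acid hydroxylase, at -0.78 ± 0.18, and for Aspa, which cleaves N-acetylaspartate, at -0.70 ± 0.14, so all 6 enzymes were lower without replicate 1. With all 13 libraries limma called Qdpr, Gal3st1, Fa2h and Aspa, DESeq2 called Fa2h, and edgeR with the GC trend removed called Fa2h and Aspa.

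None of the 7 transcription regulators passed edgeR's test with all 13 libraries (2 of 7 at an unadjusted p under 0.05), and their median log2 fold change was 0.32. DESeq2 called 1 and limma 5 of the 7, where they called 5.87% and 13.6% of all genes. Olig1 measured 252, 256 and 340.3 CPM in Cre- Saline mice, 217, 278 and 262 in Cre+ Saline mice, 832, 127 and 134 in Cre- MPTP mice and 212, 185, 219 and 191 in Cre+ MPTP mice. Replicate 1 was 6.37-fold the mean of the other 2 Cre- MPTP libraries, which were the lowest of the study, and the log2 fold change turned from 0.36 ± 0.55 (SE, adjusted p = 0.774) to -1.11 ± 0.14 (SE, adjusted p = 0.000283) when it was left out. Olig1 shares exonic bases with Gm15966 on the opposite strand.

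Nkx6-2, a homeodomain factor, showed the same split, with 46.5, 45.6 and 50.5 CPM in Cre- Saline mice, 36.1, 42.3 and 45.8 in Cre+ Saline mice, 326, 34.5 and 40.5 in Cre- MPTP mice and 38.7, 41.1, 39.4 and 34.4 in Cre+ MPTP mice. Its log2 fold change was 1.49 ± 0.64 with replicate 1 and -0.34 ± 0.12 without it, called in neither. Sox10, which acts throughout the lineage, was at 90.2, 109 and 118 CPM in Cre- Saline mice, 85.6, 97.9 and 92.1 in Cre+ Saline mice, 146, 60.7 and 49.9 in Cre- MPTP mice and 93.5, 81.4, 81.2 and 75.2 in Cre+ MPTP mice. Without replicate 1 Sox10 was called lower, at -0.93 ± 0.13 (SE, adjusted p = 0.000475), and so was Nkx2-2, at -1.03 ± 0.14. With all 13 libraries edgeR called neither, limma called both lower, and edgeR with each library's trend on GC content removed called Sox10 at -0.83 ± 0.17 (SE, adjusted p = 0.011).

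St18 ran the other way, with 11.6, 16.3 and 15.0 CPM in Cre- Saline mice, 20.9, 18.2 and 17.2 in Cre+ Saline mice, 1.95, 8.83 and 7.36 in Cre- MPTP mice and 15.97, 17.01, 16.99 and 13.2 in Cre+ MPTP mice. Replicate 1 was lowest here, at 18 counts, and the log2 fold change was -1.20 ± 0.37 (SE, adjusted p = 0.126) with it and -0.82 ± 0.17 (SE, adjusted p = 0.00775) without it. Myrf was not called by edgeR in either set, at 0.22 ± 0.23 and 0.26 ± 0.24, and neither was Olig2 at 0.47 ± 0.40 and -0.44 ± 0.14. With all 13 libraries limma called Olig2. Without replicate 1 the count was 4 of 7 regulators lower with a median of -0.82. With that library kept and the GC trend of each library removed, the median was -0.027 and Sox10 and St18 were called lower.

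**Figure D3:**
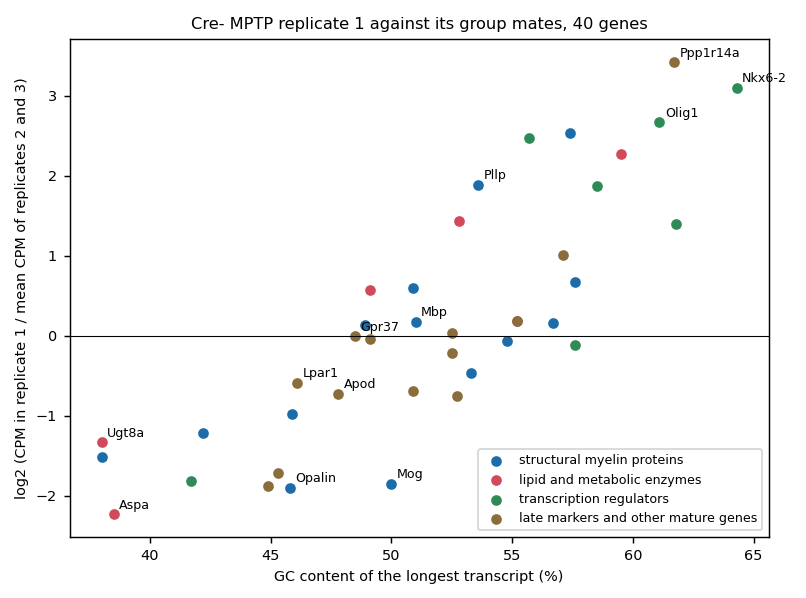
Each point is 1 of the 40 genes; x, GC content of its longest transcript (%); y, log2 ratio of CPM in Cre- MPTP replicate 1 to the mean of replicates 2 and 3, coloured by role. GC-rich genes such as Olig1, Nkx6-2 and Ppp1r14a lie above 0 and AT-rich genes such as Aspa and Ugt8a below it, while Gpr37 and Mbp lie near 0.

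Across the 40 genes the log2 CPM deviation of this library from the mean of all 13 libraries correlated with GC content (r = 0.80, n = 40 genes of 1 library, a description only). Nkx6-2 with 64.3% GC was 8.69-fold and Aspa with 38.5% GC 0.198-fold its group mates. The part of base composition in any single gene's value was not tested.

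The 13 late markers and other mature genes held 4 that fell and 1 that rose, with a median of -0.46, or 7 and 2 with a median of -0.54 without replicate 1. Gpr37, an orphan receptor of maturing oligodendrocytes, had the smallest p of all 40 genes, with 151, 191 and 184 CPM in Cre- Saline mice, 173, 179.5 and 187 in Cre+ Saline mice, 73.9, 79.0 and 69.3 in Cre- MPTP mice and 150.01, 148, 140.2 and 127 in Cre+ MPTP mice. The 3 Cre- MPTP values lay close together at 42.2% of Saline, replicate 1 among them, and the log2 fold change was -1.24 ± 0.13 (SE, adjusted p = 0.000628), and -1.24 ± 0.11 without it.

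Lpar1, a receptor of lysophosphatidic acid, measured 54.1, 69.7 and 67.3 CPM in Cre- Saline mice, 71.2, 65.2 and 74.8 in Cre+ Saline mice, 14.8, 27.9 and 17.2 in Cre- MPTP mice and 48.7, 57.1, 42.6 and 45.5 in Cre+ MPTP mice. Its Cre- MPTP values were below those of all other groups, a log2 fold change of -1.67 ± 0.22 (SE, adjusted p = 0.00166), and -1.50 ± 0.19 without replicate 1. Enpp2, the enzyme that makes this lipid outside the cell, was at -1.26 ± 0.36, not called by edgeR, and was called at -0.85 ± 0.14 without replicate 1. DESeq2, limma and edgeR with the GC trend removed called Enpp2 with all 13 libraries.

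Transferrin (Trf), the iron carrier, was at 183, 214 and 238 CPM in Cre- Saline mice, 188, 187 and 215 in Cre+ Saline mice, 139, 144 and 129 in Cre- MPTP mice and 179, 173, 155 and 164 in Cre+ MPTP mice. Cre- MPTP libraries were below all others, at 64.9% of Saline, with -0.62 ± 0.13 (SE, adjusted p = 0.0192), and -0.63 ± 0.11 without replicate 1; the call was lost without Cre- MPTP replicate 3 and without either of 2 Cre- Saline libraries. Trf exons overlap those of Gm20425 on the same strand.

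Plekhb1 gave 685, 750.0 and 692 CPM in Cre- Saline mice, 730.4, 714 and 826 in Cre+ Saline mice, 506, 514 and 528 in Cre- MPTP mice and 665, 666, 604 and 626 in Cre+ MPTP mice. Its Cre- MPTP libraries were the lowest 3, at 72.7% of Saline, and the log2 fold change of -0.46 ± 0.11 (SE, adjusted p = 0.0472) was called in only 1 of 13 sets that each left out 1 library, that without Cre- MPTP replicate 1.

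Apod was the exception of the list, with 298, 299 and 321 CPM in Cre- Saline mice, 329.5, 254 and 322 in Cre+ Saline mice, 829, 1059 and 1679 in Cre- MPTP mice and 439.7, 553, 399 and 360.4 in Cre+ MPTP mice. All 3 Cre- MPTP libraries were above all others, also in replicate 1, and the log2 fold change was 1.96 ± 0.24 (SE, adjusted p = 0.00132), or 2.17 ± 0.19 without that library. Outside the lineage Apod is made by fibroblasts and perivascular cells, and beside it Dcn, a fibroblast proteoglycan, was at 59.0, 70.9 and 85.1 CPM in Cre- MPTP mice against 24.8, 26.8 and 23.5 in Cre- Saline mice (1.52 ± 0.33 (SE, adjusted p = 0.027)). The Dcn mean stood at 286% of Saline with replicate 1 and 312% without it. The 7 meningeal fibroblast markers as a list did not follow Dcn, with 2 of 7 called lower, 1 higher and a summed level of 173 to 209 CPM against 215 to 259.5 CPM, and their part in the Apod result was not tested.

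Ppp1r14a, an inhibitor of myosin phosphatase singled out after its values were seen, was at 68.1, 65.3 and 61.3 CPM in Cre- Saline mice, 48.9, 60.2 and 62.1 in Cre+ Saline mice, 287, 28.8 and 23.9 in Cre- MPTP mice and 40.8, 42.9, 42.2 and 41.7 in Cre+ MPTP mice. Replicate 1 was 10.9-fold its group mates, the largest ratio of the 40 genes, and the log2 fold change turned from 0.79 ± 0.68 to -1.30 ± 0.11 (SE, adjusted p = 3.5e-05) without it. Anln, the septin-binding protein anillin, was called higher without replicate 1, at 0.99 ± 0.17 (SE, adjusted p = 0.00207), and by limma but not edgeR with all 13 libraries, with 47.7, 139 and 178 CPM in Cre- MPTP and 70.6, 92.7 and 75.7 in Cre- Saline mice. Bcas1, a marker of myelinating cells, was called lower in that set, at -0.45 ± 0.13, and with all 13 libraries by DESeq2 and limma but not edgeR. Klk6 and Adamts4, which encode proteases, Plekhh1 and Gsn were not called by edgeR in either. With all 13 libraries limma called Plekhh1 and Gsn. Gsn, the actin-severing protein gelsolin, was at 74.6, 84.1, 74.6 and 155 CPM in Cre+ MPTP mice, the highest value in replicate 4, the library with most muscle transcripts.

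**Figure D4:**
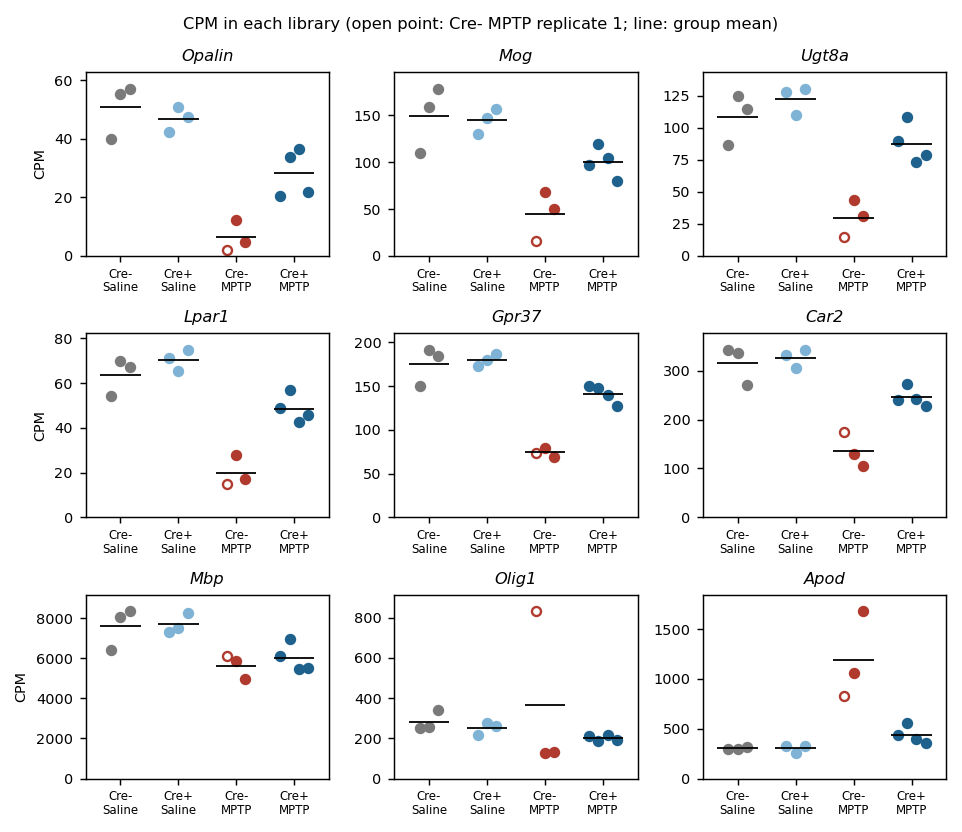
CPM of 9 genes in each of the 13 libraries by group (linear axes from 0); lines are group means and the open point is Cre- MPTP replicate 1. The Cre- MPTP points of Opalin, Mog, Ugt8a, Lpar1, Gpr37 and Car2 lie below all Cre+ MPTP points, those of Apod above them, and Olig1 splits between 832 CPM in replicate 1 and 127 and 134 CPM in replicates 2 and 3.

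Calls for Cnp, Opalin, Gjb1, Ugt8a, Car2, Lpar1, Apod and Gpr37 held in all 13 sets that each left out 1 library. Calls for Mog, Trf and Plekhb1 were lost without the 2 libraries with most muscle transcripts, and those for Trf and Plekhb1 with a replicate block. With edgeR on the 6 Cre- libraries alone, whose spread then rests on few samples, no member was called (16 of 40 at an unadjusted p under 0.05), against 17 with DESeq2 and 32 with limma on all 13. Of all genes, edgeR on the 6 libraries called 0.600%, DESeq2 5.87% and limma 13.6%.

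The same comparison was made in mice whose astrocytes had been targeted. In Cre+ mice the 40 genes were lower after MPTP by a small amount, with a median log2 fold change of -0.31 against 0.0034 over all genes and negative values for 38 of 40, but none passed edgeR's test, as no gene of the whole table did (0% called in either direction). At an unadjusted p under 0.05 there were 8 members. DESeq2 called 0 and limma 13 of the 40, where they called 0.429% and 1.52% of all genes. All 4 Cre+ MPTP libraries lay below all 3 Cre+ Saline libraries for 22 genes and above them for 1, against 4.61% and 5.06% of all genes.

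The largest negative difference was again that of Opalin, at -0.73 ± 0.41 (SE, adjusted p = 1), with 60.1% of the Cre+ Saline mean. Ugt8a stood at 71.4%, Lpar1 at 68.8%, Mog at 69.3%, Car2 at 75.3% and Gpr37 at 78.5% of Cre+ Saline. The largest positive difference was that of Apod, at 0.54 ± 0.22 (SE, adjusted p = 1), whose 4 Cre+ MPTP libraries also lay above all 3 Saline libraries. By role the medians were -0.33 for structural proteins, -0.43 for enzymes, -0.15 for regulators and -0.24 for late markers. Among the genes lowest in Cre- mice, Pllp was at -0.64 ± 0.39 and St18 at -0.25 ± 0.33.

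To ask how genotype bore on these genes under the toxin, Cre+ MPTP and Cre- MPTP mice were compared. Opalin, Ugt8a, Lpar1, Gpr37, Car2 and Gjb1 were higher and Apod was lower in Cre+ mice, 6 and 1 of 40 genes where 0.517% and 1.03% of all genes were called. The median log2 difference was 0.24 over the 40 genes and 0.030 over all genes, and 15 genes did not overlap on the higher side and 1 on the lower, against 6.25% and 5.07% of all genes. Without Cre- MPTP replicate 1 the calls were 15 higher and 3 lower, where 1.25% and 1.93% of all genes were called, and included all 7 of the full set, with a median of 0.46; 24 genes did not overlap on the higher side and 3 on the lower, against 10.7% and 11.2% of all genes.

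Opalin differed most, at 2.09 ± 0.45 (SE, adjusted p = 0.0402), with 20.6, 33.7, 36.6 and 21.8 CPM in Cre+ against 1.95, 12.4 and 4.89 in Cre- MPTP mice. Its Cre+ values split into a lower and a higher pair, all above the highest Cre- value, and its call was kept in 2 of the 13 sets that each left out 1 library, those without Cre- MPTP replicate 1 or 2, with adjusted p up to 0.119 in the others. Ugt8a followed at 1.54 ± 0.30 (SE, adjusted p = 0.0261), Lpar1 at 1.27 ± 0.21 (SE, adjusted p = 0.0128), Gpr37 at 0.93 ± 0.12 (SE, adjusted p = 0.00666), Car2 at 0.85 ± 0.17 (SE, adjusted p = 0.0278) and Gjb1 at 0.79 ± 0.15 (SE, adjusted p = 0.0245). Apod was lower in Cre+ mice, at -1.44 ± 0.22 (SE, adjusted p = 0.0113), with 439.7, 553, 399 and 360.4 against 829, 1059 and 1679 CPM. Without Cre- MPTP replicate 1 the values were 1.71 ± 0.33 for Opalin, 1.22 ± 0.19 for Ugt8a, 1.102 ± 0.18 for Lpar1, 0.93 ± 0.10 for Gpr37, 1.07 ± 0.12 for Car2, 0.84 ± 0.14 for Gjb1 and -1.65 ± 0.18 for Apod.

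Mog at 1.15 ± 0.36 (SE, adjusted p = 0.166) and Cnp at 0.53 ± 0.16 (SE, adjusted p = 0.151) did not overlap between genotypes but missed the threshold. Of the most abundant transcripts, Mbp was close to 0 at 0.091 ± 0.15 (SE, adjusted p = 0.711). Mobp, at 0.23 ± 0.17 (SE, adjusted p = 0.463), stood near the median of 0.24 over the 40 genes. The largest negative value, -1.80 ± 0.58 (SE, adjusted p = 0.176) for Nkx6-2, stood beside 326 CPM in Cre- MPTP replicate 1 and was 0.026 ± 0.11 without it. Pllp was at 0.91 ± 0.41 with that library and 1.85 ± 0.19 (SE, adjusted p = 0.00035) without it, where Sox10, Olig1, Nkx2-2, St18, Qdpr, Gal3st1, Enpp2 and Ppp1r14a were also called higher and Cd9, a tetraspanin, and Anln lower.

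**Figure D5:**
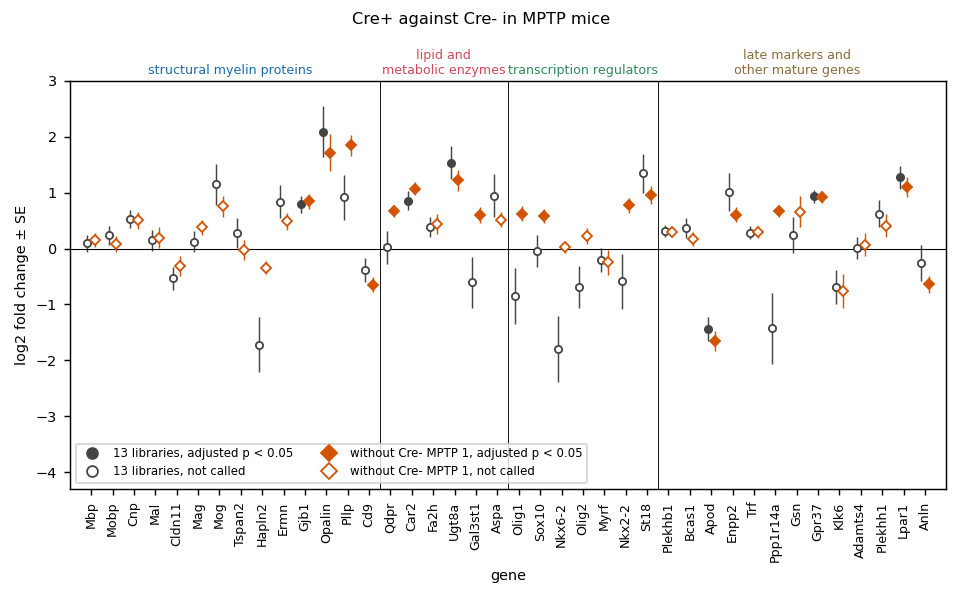
Log2 difference ± SE of the 40 genes, Cre+ against Cre- in MPTP mice, from edgeR with all 13 libraries (circles) and without Cre- MPTP replicate 1 (diamonds); filled symbols have an adjusted p under 0.05. Opalin is highest at 2.09 with all libraries, Apod is called lower in both sets, and Mbp lies close to 0 with all libraries.

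These calls depended on single libraries. Besides the 18 calls without Cre- MPTP replicate 1, leaving out replicate 2 of that group gave 12, where 3.18% and 9.51% of all genes were called. By contrast, 1, 2 and 4 members were called when Cre+ MPTP replicate 1, 3 or 4 was left out, where 0.218%, 0.212% and 0.563% of all genes were called. Gpr37 was called in all 13 sets that each left out 1 library. Lpar1 was called in 12, Gjb1 and Apod in 11, Car2 in 10 and Ugt8a in 9 of them. With a replicate block all 7 calls were lost, without the 2 libraries with most muscle transcripts only that of Gpr37 remained, and with the GC trend removed Car2 was lost, at 0.69 ± 0.21 (SE, adjusted p = 0.129). Of all genes, these settings called 0%, 0.105% and 2.38%. With edgeR on the 7 MPTP libraries alone no member was called (14 of 40 at an unadjusted p under 0.05), and DESeq2 and limma called 11 and 28 on all 13. Of all genes, edgeR on the 7 libraries called 0%, DESeq2 4.31% and limma 6.32%.

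The interaction asks whether MPTP acted differently in the genotypes. No member passed edgeR's test with all libraries, where 0.0103% and 0% of all genes were called higher and lower. An unadjusted p under 0.05 was reached by 11 of 40. DESeq2 called 4 and limma 21 of the 40, where they called 1.15% and 3.56% of all genes. With edgeR Gpr37 came closest, with a log2 difference of 0.89 ± 0.17 (SE, adjusted p = 0.145), followed by Apod at -1.42 ± 0.32 (SE, adjusted p = 0.195). Without Cre- MPTP replicate 1 there were 8 calls higher and 1 lower, where 0.497% and 0.533% of all genes were called. Those higher, meaning less reduced by MPTP in Cre+ mice, were Pllp at 1.92 ± 0.24 (SE, adjusted p = 0.00614), Car2 at 1.02 ± 0.16, Nkx2-2 at 0.95 ± 0.18, Gpr37 at 0.89 ± 0.14, Gjb1 at 0.86 ± 0.19, Ppp1r14a at 0.85 ± 0.15, Sox10 at 0.78 ± 0.16 and Qdpr at 0.73 ± 0.15, and Apod was lower at -1.63 ± 0.25.

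Under saline no difference between genotypes passed edgeR's test. None of the 40 was called by edgeR, DESeq2 or limma, and none had an unadjusted p under 0.05 with edgeR and 2 had with limma. Of all genes, edgeR called 0%, DESeq2 0.0103% and limma 0.0155%. The log2 differences ran from -0.20 ± 0.31 for Sox10 to 0.39 ± 0.36 for St18, whose 3 Cre+ libraries at 20.9, 18.2 and 17.2 CPM lay just above the 3 Cre- libraries at 11.6, 16.3 and 15.0. No other member separated the 2 groups, where 5.91% of all genes lay higher and 5.71% lower in Cre+ mice without overlap, and the median was -0.015. For Mbp the difference was 0.017 ± 0.16, for Opalin -0.12 ± 0.44 and for Apod -0.019 ± 0.24. The SE of 0.44 for Opalin limits what 3 mice a group could show.

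Other genes of the lineage, also chosen with earlier results of these data known, were followed too. Of 23 other oligodendrocyte genes, 9 fell and none rose in Cre- MPTP against Cre- Saline mice, where 0.956% of all genes were called lower, and the median was -0.86. Among the 9 were Padi2, a protein-citrullinating enzyme, at -1.43 ± 0.18 (SE, adjusted p = 0.00129), the septin Sept4 at -1.04 ± 0.16 and Ndrg1 at -1.16 ± 0.18. Without replicate 1 there were 16, against 4.25% of all genes, with Padi2 at -1.27 ± 0.13, Sept4 at -0.86 ± 0.081 and Ndrg1 at -0.97 ± 0.11. In Cre+ against Cre- MPTP mice 4 of the 23 were higher, against 0.517% of all genes, Padi2 leading at 1.33 ± 0.17, and without replicate 1 there were 10, against 1.25%, with Padi2 at 1.17 ± 0.13. Of 13 oligodendrocyte precursor genes only Gpr17, a receptor of cells about to differentiate, fell with all libraries, at -1.71 ± 0.40 (SE, adjusted p = 0.0347), and the median was -0.32, or -0.12 without replicate 1. Without it, Gpr17 at -1.36 ± 0.30, Bmp4, Enpp6 and C1ql1 were lower and Pdgfra, the receptor that defines precursors, was higher at 0.46 ± 0.11 (SE, adjusted p = 0.0146).

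Genes of Schwann cells, the glia of peripheral nerve, were followed as a list. Of these, Pmp2 had no counts in any library. The 8 Schwann cell genes summed to 95.5 to 109 CPM in 12 libraries and to 183 CPM in Cre- MPTP replicate 1, mostly Drp2 and Sox2, which brain cells also express, and 0 of the 7 tested were called in Cre- mice.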

How the data were processed

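RNA-Seq was performed on midbrain RNA of 13 mice with a stranded total RNA kit and paired reads of 150 bases. The deposited values are whole-number counts per gene made by the authors with Trimmomatic 0.36, STAR 2.5.2b and featureCounts (Subread 1.5.2) on GRCm38; the strand setting was not given in the sources used here, so genes with antisense overlaps (13 of the 40) are uncertain. Samples were grouped by the labels, with each mouse 1 replicate. Counts were analysed with edgeR 4.0.16 in R 4.3.3: TMM factors, a filter of 10 counts in 3 libraries, 1 term per group over 13 libraries, the quasi-likelihood test and Benjamini-Hochberg adjustment over all 19360 genes, called at an adjusted p under 0.05, for 5 contrasts. CPM are scaled by TMM factors, and the SE is the log2 fold change divided by the square root of F. Gene spans and GC content came from GENCODE M21. Alternatives used DESeq2 1.42.0, limma 3.58.1 (voom with quality weights), other scalings and filters, and left out each library. Values in every library are given for members called in any contrast, the highest per kilobase in each role and the largest difference of either sign in each pairwise contrast. The 40 genes, their roles and the marker lists were chosen with earlier results of these data known. The scripts' tests were checked on simulated counts.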

Additional observations from a re-analysis of the deposited data

Results flagged for a closer look

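In Cre+ MPTP mice, the only group with enough libraries for Dixon's test, 41 values were examined (40 genes and their sum) and 2 had a library far from its mates, where chance flags about 1 in 20. Cd9, a tetraspanin, was at 49.96 CPM in replicate 2 against 34.7 in the nearest library, a gap of 0.966 of the group's range. Gsn was at 154.9 CPM in replicate 4 against 84.1, a gap of 0.881 of the range, and muscle transcripts summed to 5983 CPM in the same library; their part in the Gsn value was not tested.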

How the results depend on the processing

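Replicate numbers did not pair the libraries: over 18 same-number pairs the deviations correlated between -0.18 and 0.18, and 3 exceeded 0.1. With a replicate block, 8 members were called lower and 1 higher for MPTP in Cre- mice, 0 and 0 for genotype in MPTP mice, and the block changed no other count. Of all genes, 2.21% and 0% were called with the block in these comparisons. For MPTP in Cre- mice (10 lower, 1 higher), DESeq2 called 17 members, 2 of them higher, and limma called 29 lower and 3 higher. With edgeR on the 2 groups the counts were 0 and 0. With the GC trend removed, an alternative chosen after seeing the data, edgeR called 18 members, 17 of them lower. Of all genes, DESeq2 called 5.87%, limma 13.6%, edgeR on the 2 groups 0.600% and edgeR with the GC trend removed 4.71%. Leaving out 1 library gave 7 to 24 lower and 1 to 2 higher, with medians of -0.70 to -0.42 for structural proteins, -1.16 to -0.82 for enzymes and -0.82 to 0.73 for regulators; with the GC trend removed the late markers' median was -0.60. For MPTP in Cre+ mice limma called 13 lower, where it called 1.52% of all genes. For genotype in MPTP mice (6 higher, 1 lower), DESeq2 called 11 members, 2 of them lower, and limma called 24 higher and 4 lower. With edgeR on the 2 groups the counts were 0 and 0. Without the 2 libraries with most muscle transcripts, also chosen after seeing the data, edgeR called 1 and 0. Of all genes, DESeq2 called 4.31%, limma 6.32%, edgeR on the 2 groups 0% and edgeR without those 2 libraries 0.105%. Leaving out 1 library gave 1 to 15 higher and 0 to 3 lower, with medians of 0.19 to 0.46 for structural proteins and -0.98 to 0.58 for regulators, which stood at 0.0061 with the GC trend removed. Between 0.212% and 9.51% of all genes were called in the sets that left out 1 library. For the interaction, DESeq2 called 3 higher and 1 lower, limma 18 and 3, and edgeR with the GC trend removed 1 lower. Of all genes, these fits called 1.15%, 3.56% and 0.191%. Leaving out 1 library gave 0 to 8 higher and 0 to 1 lower, with medians of 0.11 to 0.47, -0.81 to 0.57 and 0.19 to 0.42 for structural proteins, regulators and late markers. DESeq2 gave no adjusted p for 4 members in each of the 5 contrasts, so these could not be called by it.

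Some genes turned their sign under some settings for MPTP in Cre- mice. Olig1 went to -1.004 with limma and -0.52 with the GC trend removed. Nkx6-2 went to -0.26 and Nkx2-2 to -1.03 with limma. Ppp1r14a went to -1.32 with limma and -0.36 with the GC trend removed. By group means, Olig2 went from 140% of Saline with Cre- MPTP replicate 1 to 73.6% without it, and Gal3st1 from 109% to 46.6%. With the GC trend removed, Olig2 was at -0.027 and Gal3st1 at -0.56. Leaving out 1 library gave -1.11 to 0.75 for Olig1, -0.34 to 1.91 for Nkx6-2, -1.03 to 0.73 for Nkx2-2, -1.30 to 1.27 for Ppp1r14a and -0.032 to 0.45 for Myrf, and -2.22 to 0.026 for Nkx6-2 between genotypes in MPTP mice. In these sets, except for Myrf, the sign turned without Cre- MPTP replicate 1. The cause was not tested. The shallowest library, at 11489150 counts, held 18 counts of Opalin and of St18, the fewest of the 40 genes.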
